A study of Mus musculus with 9 samples.

Results

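The cytosolic ribosomal protein genes encode the proteins of the ribosome that translates most messages of the cell. They were taken from an array study of mouse lung macrophages as every probe whose platform gene symbol is Rplp0, Rplp1, Rplp2, Rpsa, or Rpl or Rps followed by a number, with an optional a, l or x at the end. The S6 kinases and pseudogenes were left out, among them Rps4l, which RefSeq lists as a transcribed pseudogene. The rule found 89 probes of 59 genes among the 46237 probes and 22491 gene symbols of the table. Of these, 74 probes of 55 genes reached a detection p below 0.05 on 3 or more arrays out of 9, as did 21946 probes in all. The other 15 probes did not pass, and Rpl6, Rps15a, Rps20 and the testis paralogue Rpl39l had no passing probe. Just inside that limit lay Rpl21 probe a and Rpl23 probe d, above background on 4 arrays each, and just outside it Rpl37 probe b and Rplp0 probe b, on 2 arrays each. Where a gene had several probes they are lettered by their mean signal, with a as the brightest.

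The lung cells came from C57/BL6 females at 8 weeks of age and were sorted by flow cytometry on the surface proteins SiglecF and CD11b. The 3 groups had 3 single-colour beadchip arrays each. Het Mph cells came from Pparg-/+.LysMCre mice and Hom Mph cells from Pparg-/-.LysMCre mice, and both are labelled wild type alveolar macrophages. Hom int pop cells also came from Pparg-/-.LysMCre mice and are labelled as lacking Pparg, which encodes the lipid-activated nuclear receptor PPARg. The titles do not spell out "int pop". All groups carry a Cre recombinase driven by the LysM promoter, which is active in myeloid cells, and all lack at least 1 Pparg allele by their genotype label. Beyond the 2 sorting markers, the sources used here do not say what separated wild type from deficient cells of Pparg-/-.LysMCre mice. Replicates are not stated to be separate mice, and the p-values therefore cover the spread among these arrays, part of which may be technical. The numbers in the titles put all 6 Mph arrays on 1 chip and the 3 Hom int pop arrays on another, so chip and cell population cannot be told apart in any comparison of Hom int pop, whereas Hom Mph and Het Mph were compared within 1 chip.

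Median raw signal ran from 145 to 290.3 and 37.8% to 42.5% of probes per array were above background. Each of the 3 Pparg probes had a lower mean in Hom int pop than in Het Mph, by a log2 difference of -1.93 (adjusted p = 0.0561), -1.10 (adjusted p = 0.272) and -2.27 (adjusted p = 0.142) in limma, and none passed the test. Against Hom Mph they differed by -1.48, -0.57 and -0.89 (adjusted p = 0.294, 0.795 and 0.796 in limma). The third probe's lowest values, 4.35 in Hom Mph and 4.50 in Hom int pop, were both below 4.78, the lowest log2 signal above background on any array. Their order is thus not measured, and the differences of this probe are no measured sizes. Of 15 alveolar macrophage markers, 11 had a passing probe, while Fabp4 and Atp6v0d2 were below the detection filter. Their summed signal ran from 12825 to 13761 in Het Mph, from 12959 to 14163 in Hom Mph and from 11067 to 11425 in Hom int pop. The 9 of 14 monocyte and interstitial macrophage markers with a passing probe summed to 935 to 1205 in Het Mph, 1794 to 3039 in Hom Mph and 4956 to 7312 in Hom int pop, and Ccr2, Itgam and Lyve1 were below the filter. Markers of neutrophils, eosinophils, dendritic cells and lymphocytes summed to at most 561 on any array, and those of lung epithelium ran from 1976 to 2281 in Het Mph, 1826 to 2078 in Hom Mph and 2130 to 2690 in Hom int pop. Endothelial and stromal markers ran from 564 to 639, 586 to 729 and 663 to 732.

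The ribosome has a small subunit, which decodes the message, and a large subunit, which joins the amino acids. Its proteins are made in nearly equal amounts, their genes are among the most strongly expressed of any cell, and their messages begin with a run of pyrimidines, the TOP motif (terminal oligopyrimidine), through which the kinase complex mTORC1 controls their translation with LARP1 and the 4E-BP proteins. The transcription factor MYC drives the transcription of many of them. Alveolar macrophages are long-lived phagocytes of the air spaces that renew themselves in the lung and depend on PPARg for their identity. The comparisons ask whether the ribosomal protein messages differ between the cells labelled Pparg-deficient and the macrophages labelled wild type. Array signal measures message abundance and not translation, and in sorted bulk samples fewer cells of a type and less RNA per cell cannot be told apart.

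The start of transcription, where the pyrimidine run lies, was looked at in sequence. RefSeq promoter windows (GRCm38.p6, from 250 bases before to 50 after the annotated start) were matched for 49 of the 59 genes, 59 windows in all. The 30 bases around the start, 15 on each side, follow here with the longest run of C and T in capitals. They are the windows of members whose Hom int pop arrays lay outside all 6 Mph arrays, except Rpl3, of Rpl22 and Rpl3l, members with large differences and with 2 windows each of which the first is printed, and, for comparison, of Rpl7a and Rps6.
Rplp0 (chr5:115559452-115559481, plus strand): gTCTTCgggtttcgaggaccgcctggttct
Rplp2 (chr7:141447636-141447665, plus strand): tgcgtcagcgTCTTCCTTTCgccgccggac
Rpl36a (chrX:134585639-134585668, plus strand): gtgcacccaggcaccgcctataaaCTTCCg
Rps9 (chr7:3704026-3704055, plus strand): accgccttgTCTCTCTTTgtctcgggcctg
Rps18 (chr17:33955651-33955680, minus strand): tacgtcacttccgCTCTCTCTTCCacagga
Rpl22 (chr4:152325711-152325740, plus strand): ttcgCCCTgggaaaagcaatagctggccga
Rpl3l (chr17:24727811-24727840, plus strand): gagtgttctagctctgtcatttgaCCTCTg
Rpl7a (chr2:26910792-26910821, plus strand): aTTCCCTCTTCTTTCTTTCTCCagcagccg
Rps6 (chr4:86857353-86857382, minus strand): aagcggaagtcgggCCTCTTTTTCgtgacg
The longest run is 21 bases in Rpl7a, 11 in Rps18, 10 in Rplp2 and in Rps6, 9 in Rps9, 5 in Rplp0, Rpl36a and this window of Rpl3l, and 4 in this window of Rpl22, while the second window has 4 in Rpl3l and 5 in Rpl22. Over the 59 windows it ran from 2 to 21 bases with a median of 6, so a long run at the annotated start was not common to all members. These are annotated starts, and no start was measured here.

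Over all 59 windows, CTTTC or CTTCC on the sense strand within 15 bases of the start stood in 20 (33.9%), against 10.3% of the 32851 windows of all genes. Taken apart, CTTTC stood in 20.3% against 4.05% and CTTCC in 18.6% against 6.63%. The 7-letter core of an ETS family site, CCGGAAG, searched on both strands of the full window, stood in 24 windows (40.7%) against 8.86%. AAGATGGC, the core of a YY1 site, stood on either strand in 3 (5.08%) against 2.75%. CTTCC is part of the reverse complement of CCGGAAG, whose last letters also open AAGATGGC, so these counts are not independent. A match describes letters in the window and not a bound factor.

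Of the 74 ribosomal protein probes 1 passed the test in any comparison. Against Het Mph, Hom int pop had 1 ribosomal protein probe higher and 0 lower at an adjusted p under 0.05, where 219 of all 21946 probes were called (0.998%), 174 higher and 45 lower. That probe was Rplp0 probe a. In this comparison 8 of the 74 (10.8%) had an unadjusted p under 0.05 in limma, beside 13.4% of all probes. Against Hom Mph 0 of the 74 probes were called in limma, where 0.169% of all probes were, and 2 (2.70%) had an unadjusted p under 0.05, beside 7.82% of all probes. Against the mean of both Mph groups 1 was higher, again Rplp0 probe a, and 0 were lower, beside 0.706% of all probes. There 6 (8.11%) had an unadjusted p under 0.05 in limma, beside 12.1% of all probes. Between Hom Mph and Het Mph 0 were called by limma, beside 0.0228% of all probes, and 4 (5.41%) had an unadjusted p under 0.05, beside 6.42% of all probes.

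The median log2 difference over the 74 probes was 0.11 between Hom int pop and Het Mph, where the median of all probes was -0.11, and 56 of the 74 differences were positive. Between Hom int pop and Hom Mph the median was 0.07 against -0.04 for all probes, with 49 positive. The 3 Hom Mph arrays against the 3 Het Mph arrays gave 0.04 against -0.07, with 45 positive. Of all probes 42.0%, 46.9% and 43.6% had positive differences, in the same order. The spread of the member median between single replicate arrays was 0.0750. It is not the error of a difference between groups, so it does not test these shifts. Single arrays overlapped in the first comparison too. The median deviation of the ribosomal protein probes was 0.01 on Hom int pop array 1 and 0.02 on Het Mph array 3. Both Hom int pop comparisons share the same 3 arrays. Without normalization between arrays the medians were 0.17, 0.01 and 0.16 in the same order, while the median of all probes was -0.37, -0.22 and -0.15, so the ribosomal protein probes lay above the median of all probes on either scale. Most probes of the table are dim, so the levels are not matched. Among probes with a mean log2 signal of 9 or more, the unnormalized medians lay closer. They were 0.17, 0.01 and 0.17 for ribosomal protein probes and 0.02, -0.09 and 0.13 for all such probes.

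**Figure D1:**
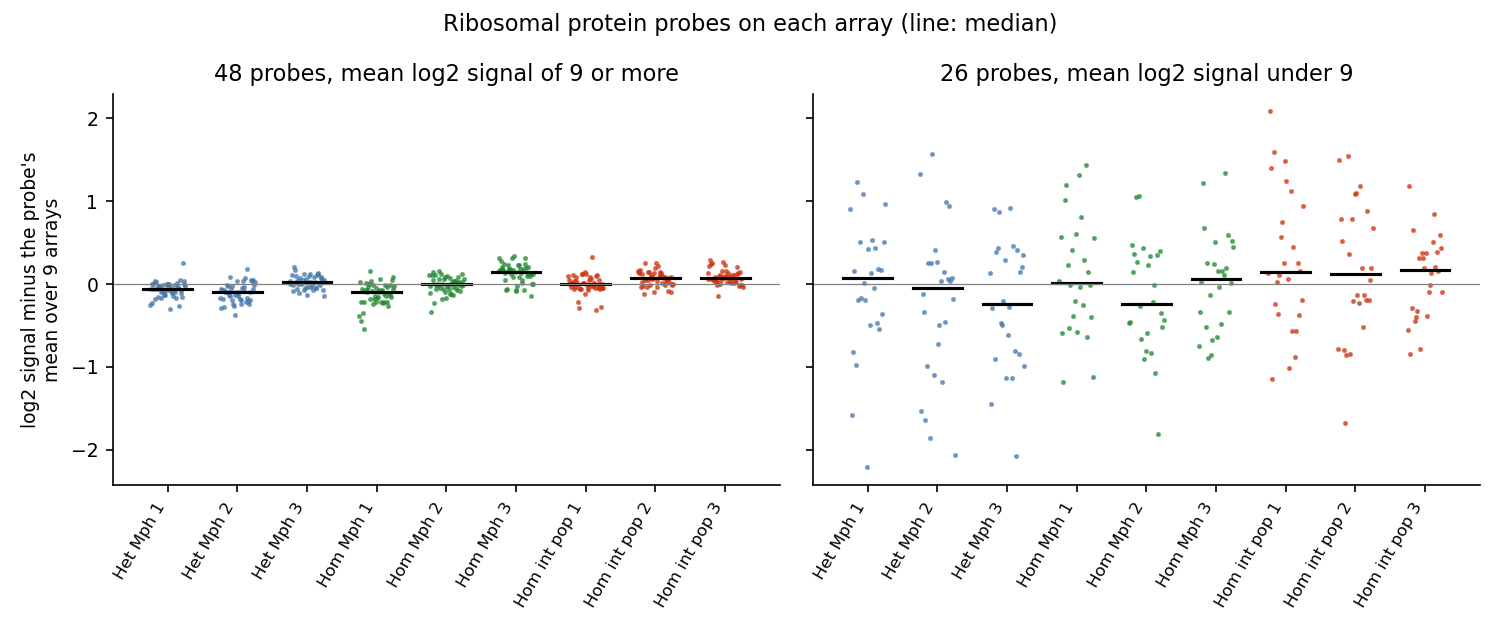
Each point is 1 ribosomal protein probe on 1 array, plotted as its log2 signal minus its mean over the 9 arrays, with the median of the array as a line, for 48 bright probes (left) and 26 dim probes (right). The medians of the bright probes stay between -0.10 and 0.15 on every array, and the dim probes spread far wider.

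The signal of the probes split them into a tight and a loose set. With a mean log2 signal of 9 as the limit, chosen after seeing the data, 48 probes of 42 genes were bright and 26 probes of 17 genes were dim, and 62 of the 74 were above background on all 9 arrays. The median pooled standard deviation within groups was 0.112 for the bright ribosomal protein probes and 0.180 for all 1641 bright probes. For the dim ribosomal protein probes it was 0.501, and for all dim probes 0.536. A probe's brightness also depends on its own sequence, so levels are compared between arrays within a probe only.

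No bright ribosomal protein probe passed the test in any of the 4 comparisons, and 0 of the 48 had an unadjusted p under 0.05 in limma. The fit drew each probe's spread toward 1 value shared by probes of every signal. Bright probes thus had a larger SE than their own arrays gave. Rplp2 probe a had group SDs of 0.01, 0.05 and 0.02 and an SE of 0.233 against Het Mph. The test could therefore not detect small differences of bright probes. Their log2 differences between Hom int pop and Het Mph ran from -0.24 to 0.30 with a median of 0.09, and 41 of 48 were positive, where 48.1% of all bright probes were. The range was -0.27 to 0.35 against Hom Mph, with a median of 0.07 and 33 positive, where 50.7% of all bright probes were. Hom Mph minus Het Mph ran from -0.13 to 0.26, with a median of 0.04 and 32 positive, where 48.3% of all bright probes were. The 95% intervals of these single-probe differences had a median half-width of 0.54 and did not reach below -0.82 or above 0.90. With quantile normalization a change of a log2 unit thus lay outside the interval of each bright probe taken singly. With median scaling between arrays the median difference from Het Mph over the 74 probes was 0.62.

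On single arrays the median deviation of the bright probes was -0.06, -0.09 and 0.02 in Het Mph, -0.10, -0.00 and 0.15 in Hom Mph and -0.00, 0.07 and 0.07 in Hom int pop. The highest and the lowest arrays were thus both Hom Mph arrays, and the Hom int pop arrays lay inside their range. Most bright probes of either subunit had positive differences. Of the 25 bright large-subunit probes 20 were higher in Hom int pop than in Het Mph, with a median of 0.07, and of the 23 bright small-subunit probes 21 were, with a median of 0.13.

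**Figure D2:**
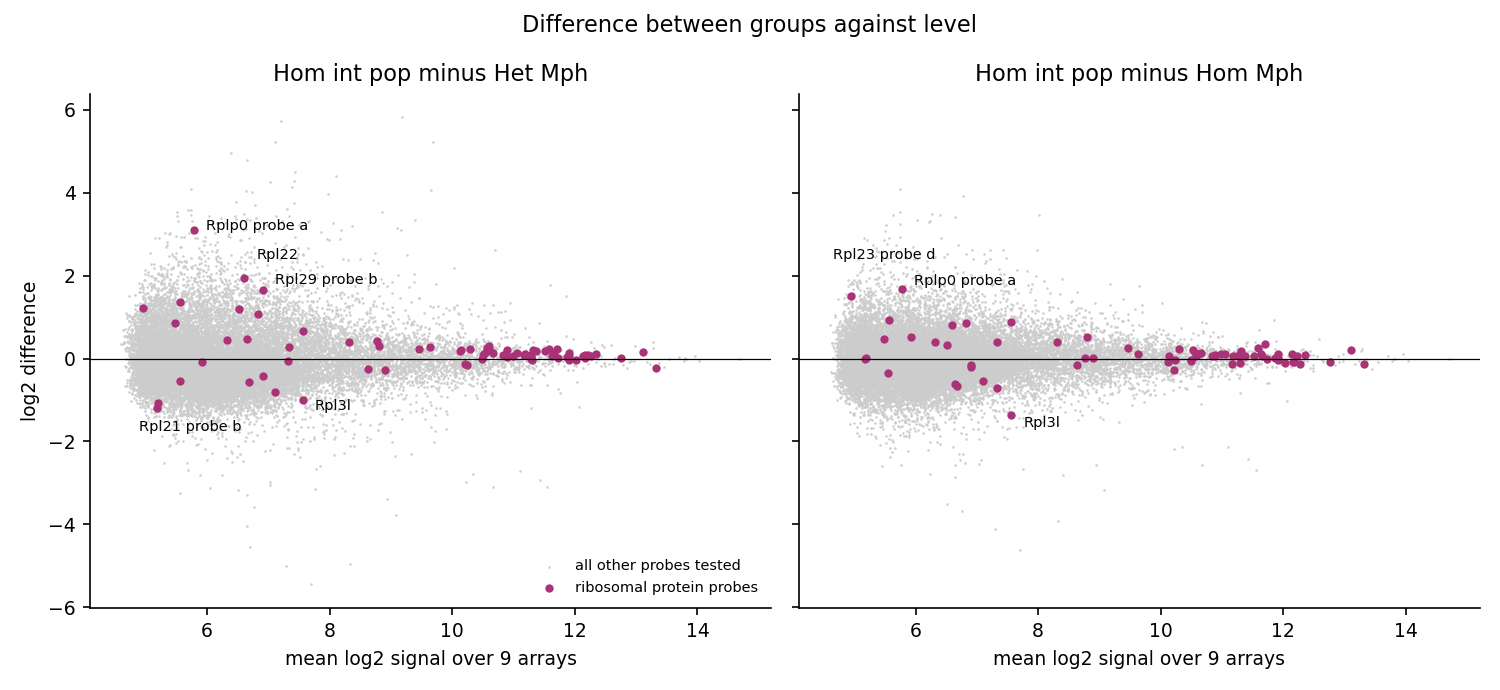
The log2 difference of each probe is plotted against its mean log2 signal over 9 arrays, for Hom int pop minus Het Mph (left) and minus Hom Mph (right), with the 74 ribosomal protein probes in purple over all other tested probes in grey. Bright ribosomal protein probes lie between -0.27 and 0.35 in both panels, while Rplp0 probe a stands at 3.10 on the left and 1.67 on the right. The 3.10 is no measured size, since no Het Mph array was well above background for that probe.

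The stalk of the large subunit consists of RPLP0, which anchors it, and pairs of RPLP1 and RPLP2, which recruit the elongation factors. Rplp0 probe a was the ribosomal protein probe that passed the test. Its log2 signal was 4.21, 4.26 and 4.34 on the Het Mph arrays, 6.35, 5.32 and 5.45 on the Hom Mph arrays and 7.87, 7.28 and 6.97 on the Hom int pop arrays. The 3 groups did not overlap, and the Hom Mph arrays lay between the other groups. It was not well above background on any Het Mph array and was above it on all 3 arrays of each other group. The probe thus entered the test through the groups where it was high.

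With the background step used here, Rplp0 probe a was at least 5.55-fold higher in Hom int pop than in Het Mph (means of 7.37 and 4.27 on the log2 scale, adjusted p = 0.00371 in limma). The bound sets the mean of the Hom int pop arrays against the lowest signal above background on the Het Mph arrays, or the probe's own signal where higher. This bound and the other minimum folds below hold for that step only. Without background correction the log2 difference was 1.15, which is smaller than the bound. Against the mean of both Mph groups it also passed (adjusted p = 0.00803), with no measured size since the Het Mph arrays give only a bound, and the exact permutation test of 3 against 6 arrays gave 0.0119, two-sided, the smallest p it can give. Hom int pop minus Hom Mph was 1.67 ± 0.354 (adjusted p = 0.174), and Hom Mph was at least 1.75-fold above Het Mph (adjusted p = 0.412), neither past the threshold. The 3 against 3 exact tests gave 0.1, their smallest value.

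Unnormalized signals of Rplp0 probe a were 143.7 to 249.3 in Het Mph, 190.3 to 270.5 in Hom Mph and 281.2 to 354.1 in Hom int pop. So the Hom int pop arrays also lay above all others before any processing, while the Het Mph and Hom Mph arrays overlapped. The log2 difference from Het Mph was 1.16 in the authors' normalized table, 1.15 without background correction and up to 3.43 under the other settings, so its size depends on the background step. The call against both Mph groups was lost when they were fitted as 1 group (adjusted p = 0.0730) and without Hom int pop replicate 1 (adjusted p = 0.0540).

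The summed monocyte and interstitial macrophage markers followed the same order of groups as Rplp0 probe a, and 3 of those 9 markers were called higher in Hom int pop than in Het Mph, where 0.998% of all probes were called in either direction. In the same comparison 3 of 11 alveolar macrophage markers were called lower, and 1 marker each of the neutrophil, lung epithelium, and endothelium and stroma lists was called higher. Their part in the Rplp0 difference was not tested. Rplp0 probe b was above background on 2 arrays, both Hom Mph, with log2 signals of 4.39, 4.52 and 4.29 in Het Mph, 5.99, 4.82 and 5.43 in Hom Mph and 4.85, 4.30 and 4.28 in Hom int pop. This second probe had its higher values in Hom Mph and not in Hom int pop, and it was not in the test. A probe annotated to the pseudogene Rplp0-ps1 was above background on all 9 arrays, with means of 6.17 ± 0.21 in Het Mph, 6.18 ± 0.54 in Hom Mph and 6.09 ± 0.58 in Hom int pop (SD, n = 3 each) and a log2 difference of -0.07 between Hom int pop and Het Mph (adjusted p = 0.950 in limma).

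The other stalk members had group means that differed by 0.11 or less. Rplp1 had 12.04, 12.21 and 12.16 in Het Mph, 12.02, 12.17 and 12.06 in Hom Mph and 12.15, 12.23 and 12.21 in Hom int pop. The groups overlapped, and Hom int pop minus Het Mph was 0.06 ± 0.237 (SE) with a 95% interval from -0.47 to 0.59. Rplp2 probe a had 11.89, 11.89 and 11.92 in Het Mph, 11.81, 11.92 and 11.86 in Hom Mph and 11.99, 11.98 and 11.95 in Hom int pop. Its Hom int pop arrays were above all 6 Mph arrays by a small margin, yet the difference of 0.07 ± 0.233 from Het Mph did not pass limma's test (adjusted p = 0.915). Its second probe was below background on all 9 arrays. The difference between Rplp0 and its stalk partners was not tested.

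**Figure D3:**
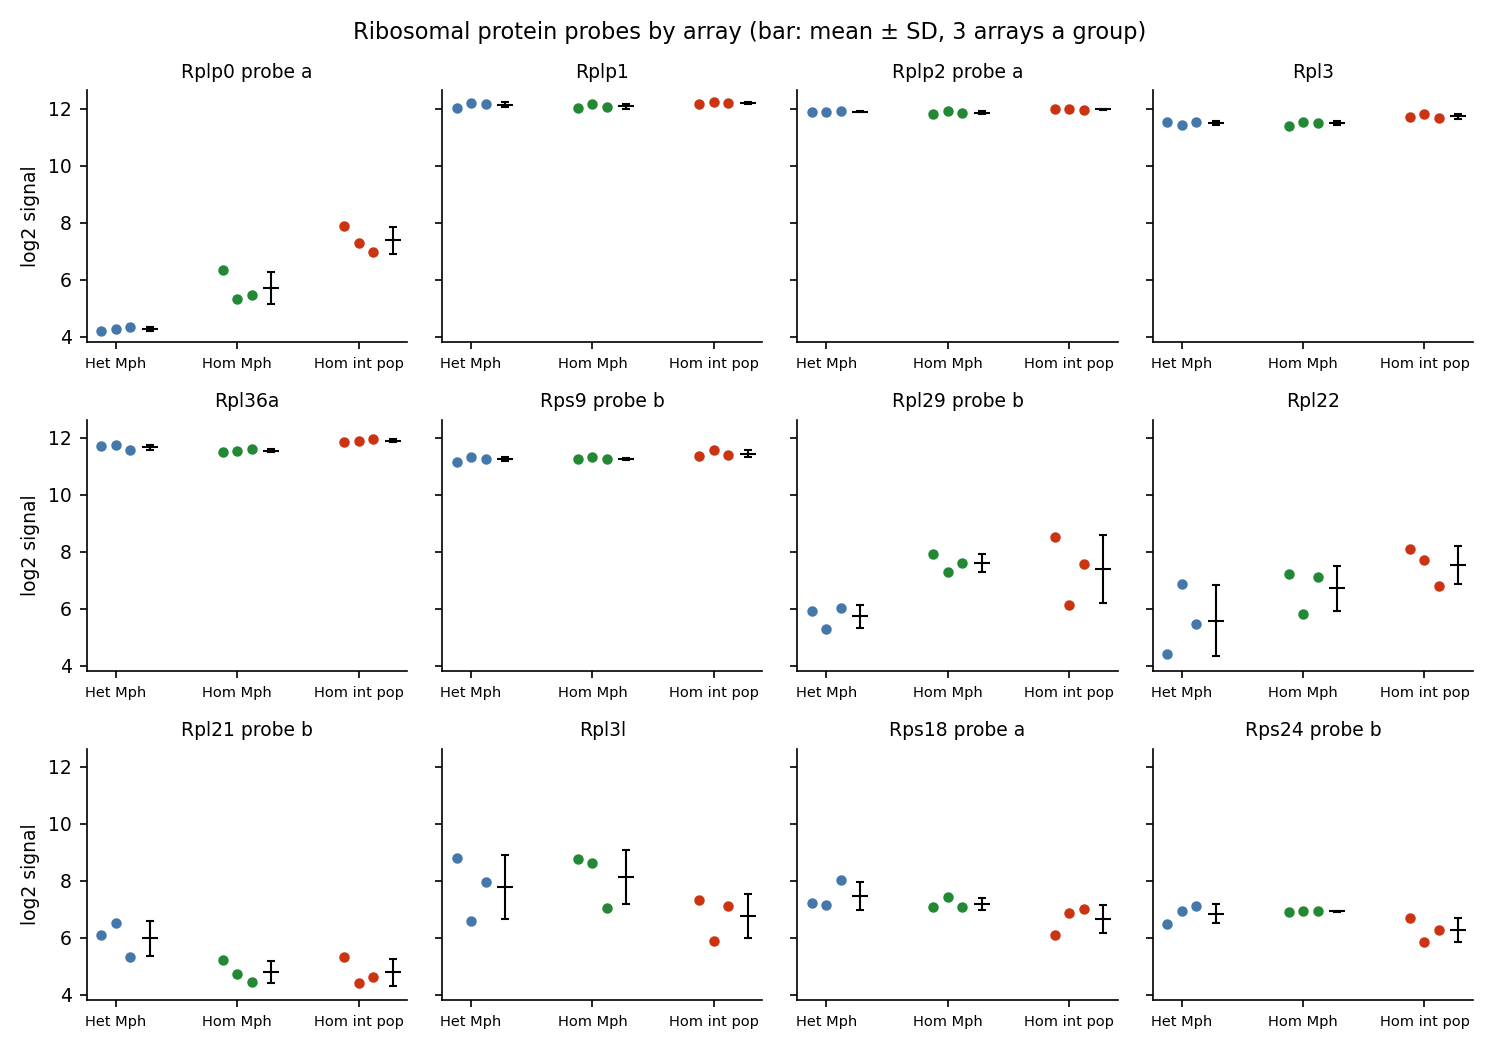
Log2 signal of 12 ribosomal protein probes on each array (points) with the group mean and SD (bars, 3 arrays a group). Rplp0 probe a has group means of 4.27, 5.71 and 7.37. The 4.27, in Het Mph, is no measured level, since no Het Mph array was well above background for this probe. Rplp1, Rplp2, Rpl3, Rpl36a and Rps9 vary by at most 0.35 between group means.

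Rpsa, the small-subunit protein also known as the laminin receptor, had log2 signals of 7.10, 6.98 and 7.33 in Het Mph, 6.27, 7.26 and 7.10 in Hom Mph and 6.34, 6.72 and 7.12 in Hom int pop for its probe a. These ranges overlapped. Hom int pop minus Het Mph was -0.41 ± 0.343 (SE, adjusted p = 0.618).

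Beside Rplp0 and Rplp2, 3 probes had all 3 Hom int pop arrays above all 6 Mph arrays, which makes 5 of 74 (6.76%) where 3.28% of all probes did so. Rpl3 encodes the protein whose extension reaches the peptidyl transferase centre. It had 11.54, 11.43 and 11.54 in Het Mph, 11.41, 11.54 and 11.51 in Hom Mph and 11.70, 11.83 and 11.67 in Hom int pop. Rpl36a, an X-linked large-subunit gene, had 11.70, 11.74 and 11.57, then 11.49, 11.54 and 11.62, then 11.85, 11.90 and 11.94. Rps9 probe b, for a protein of the small-subunit body, had 11.16, 11.31 and 11.26, then 11.24, 11.31 and 11.24, then 11.35, 11.57 and 11.40. In each of these the gap was small: Hom int pop minus the mean of both Mph groups was 0.24 ± 0.205 for Rpl3, 0.29 ± 0.205 for Rpl36a and 0.19 ± 0.206 for Rps9 probe b (SE). None passed limma's test (adjusted p = 0.680, 0.611 and 0.759).

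Rps18 probe a, for a small-subunit protein at the head of the particle, was the ribosomal protein probe with all 3 Hom int pop arrays below all 6 Mph arrays, 1 of 74 (1.35%) where 2.98% of all probes did so. Its signals were 7.23, 7.13 and 8.02 in Het Mph, 7.07, 7.44 and 7.06 in Hom Mph and 6.08, 6.87 and 7.00 in Hom int pop. The margin to the nearest Mph array was small. Hom int pop minus Het Mph was -0.81 ± 0.356 (SE, adjusted p = 0.364).

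Pair by pair, 16 of the 74 probes (21.6%) had all 3 Hom int pop arrays above all 3 Het Mph arrays and 3 (4.05%) had them below, beside 9.88% and 11.7% of all probes. Among the 16, 13 were bright, with Rpl3, Rpl19, Rpl24, Rpl36a, Rps3, Rps6, Rps7, Rps13 and Rps26 among their genes. Rps6, the target of the S6 kinases downstream of mTORC1, had 9.95, 9.91 and 10.08 in Het Mph, 10.12, 10.16 and 10.44 in Hom Mph and 10.12, 10.20 and 10.14 in Hom int pop. Its difference of 0.18 ± 0.244 (SE) from Het Mph did not pass the test, and its Hom Mph arrays too lay above all Het Mph arrays. Against Hom Mph 8 probes (10.8%) had the Hom int pop arrays above and 5 (6.76%) below, beside 6.09% and 6.23% of all probes. For Hom Mph against Het Mph, within 1 chip, 8 (10.8%) lay above and 1 (1.35%) below, beside 5.46% and 6.70%.

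All differences of more than 1 log2 unit between Hom int pop and Het Mph lay among the dim probes. Of these 10 of 26 (38.5%) differed so, where 12.8% of all dim probes did. Apart from Rplp0 probe a, none of them passed the test. Their sizes depended on the processing. Under alternative settings the difference from Het Mph shrank to as little as 0.71 for Rpl22, 0.62 for Rpl29 probe b, 0.37 for Rpl4 probe b and -0.32 for Rpl21 probe b. Rpl22 encodes an RNA-binding large-subunit protein that ribosomes can work without and that mouse T cell development requires. It had 4.39, 6.88 and 5.47 in Het Mph, 7.21, 5.80 and 7.11 in Hom Mph and 8.09, 7.69 and 6.80 in Hom int pop. The Het Mph arrays, of which 2 were above background, spread over more than 2 log2 units and overlapped the others. The difference of 1.95 ± 0.641 (SE) from Het Mph had an adjusted p of 0.234 in limma. Hom Mph minus Het Mph was 1.13 ± 0.641 for Rpl22.

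Rpl29 probe b had 5.93, 5.27 and 6.01 in Het Mph, 7.92, 7.27 and 7.59 in Hom Mph and 8.50, 6.11 and 7.56 in Hom int pop. Both Hom groups lay above Het Mph, by 1.86 ± 0.537 for Hom Mph (adjusted p = 0.533) and 1.66 ± 0.537 for Hom int pop (adjusted p = 0.229). The brighter Rpl29 probe a showed no such step between Hom Mph and Het Mph, with means of 8.18 ± 0.13 and 8.19 ± 0.36 (SD, n = 3 each), and 8.58 ± 0.14 in Hom int pop. RPL29 is a large-subunit protein also known for binding heparin.

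Rpl4 probe b, for a core protein of the exit tunnel, had 6.08, 4.37 and 4.43 in Het Mph, 6.37, 4.72 and 5.07 in Hom Mph and 6.68, 6.74 and 5.54 in Hom int pop. On the Het Mph and Hom Mph arrays replicate 1 had the highest signal. Probe b was above background on 1 Het Mph array, 2 Hom Mph arrays and all 3 Hom int pop arrays, so 4.37, 4.43 and 4.72 are no measured levels. The Hom int pop minus Het Mph difference of 1.36 ± 0.590 (SE, adjusted p = 0.358 in limma) is thus no measured size. Rpl4 probe a, above background on 2 Het Mph arrays, gave 1.20 ± 0.675 (adjusted p = 0.466).

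The Rpl21 probes went the other way. Probe b had 6.08, 6.51 and 5.32 in Het Mph, 5.21, 4.71 and 4.43 in Hom Mph and 5.32, 4.40 and 4.63 in Hom int pop, so both Hom groups had the same mean of 4.78. Its difference from Het Mph was -1.19 ± 0.395 in each (adjusted p = 0.241 for Hom int pop and 0.680 for Hom Mph). Probe a gave -1.07 ± 0.603 for Hom int pop and -1.08 ± 0.603 for Hom Mph. RPL21 is a large-subunit protein, and probe b was above background on 5 arrays and probe a on 4.

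Probes of 1 gene did not always have the same sign, and the difference between probes was not tested. Of the 12 genes with several passing probes, 4 had probes of opposite sign between Hom int pop and Het Mph. Rpl23, whose protein also binds the p53 regulator MDM2, ran from -0.24 in probe a to 1.21 in probe d. Probe a, at a mean of 13.32, and probe b, at 12.17, differed by under 0.25 in every comparison. Rpl23 probe d had 5.38, 4.23 and 4.33 in Het Mph, 4.38, 4.36 and 4.32 in Hom Mph and 6.20, 6.05 and 5.33 in Hom int pop. It was above background on 1 Het Mph array and all 3 Hom int pop arrays, so the 1.21 is no measured size. On no Hom Mph array was it well above background. With the background step used here it was at least 1.99-fold higher in Hom int pop (means of 5.86 and 4.35, adjusted p = 0.252). Rpl23 probe c instead had its higher values in Hom Mph, 8.64, 7.56 and 7.49, against 6.83, 6.84 and 7.05 in Het Mph and 7.39, 7.20 and 6.94 in Hom int pop, a difference of 0.99 ± 0.347 between the Mph groups (adjusted p = 0.702).

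**Figure D4:**
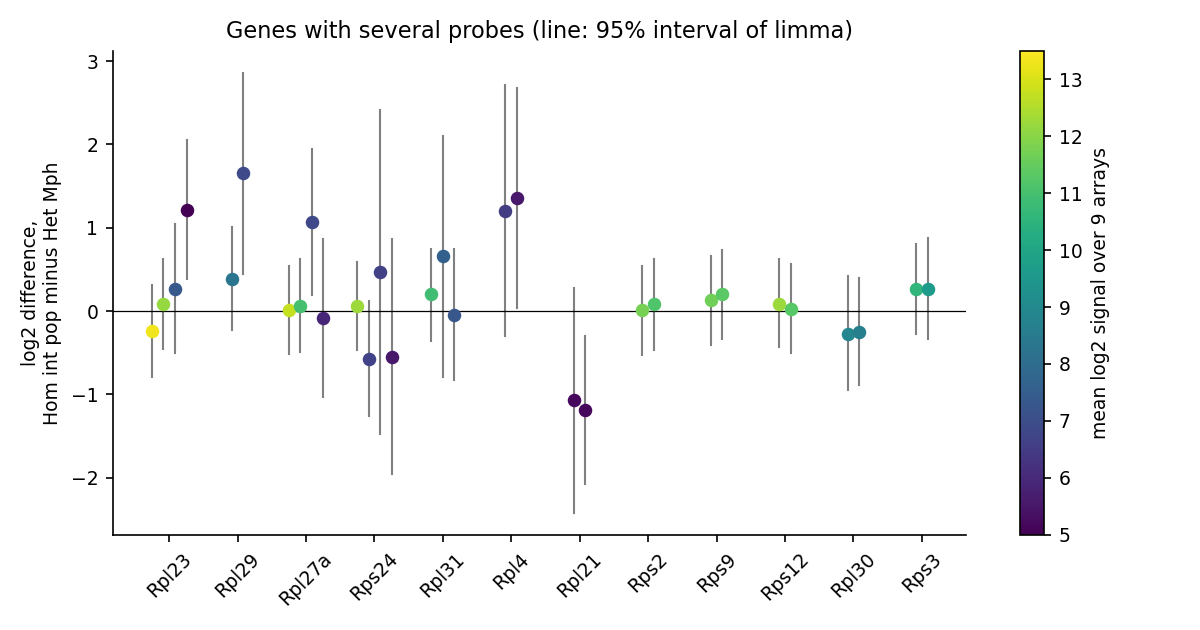
Log2 difference between Hom int pop and Het Mph for each passing probe of the 12 genes with several probes (points), coloured by mean log2 signal, with limma's 95% interval (lines). Bright probes sit near 0, and the dim probes of Rpl23, Rpl29, Rpl27a, Rps24, Rpl31, Rpl4 and Rpl21 reach from -1.19 to 1.66.

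Rpl27a, Rps24 and Rpl31 were the other genes of this kind. Rpl27a probes a and b, bright, gave 0.01 ± 0.236 and 0.06 ± 0.248 (SE) between Hom int pop and Het Mph. Its dim probe c gave 1.07 ± 0.393 (adjusted p = 0.288), from 6.84, 5.72 and 6.63 in Het Mph to 7.57, 7.61 and 7.20 in Hom int pop, and probe d gave -0.08 ± 0.424. Rps24 encodes a small-subunit protein mutated in some cases of human Diamond-Blackfan anaemia. Its bright probe a gave 0.06 ± 0.237, while probe b gave -0.57 ± 0.308, probe c 0.47 ± 0.869 and probe d -0.55 ± 0.633. Probe c was the most variable, with 6.18, 7.65 and 4.57 in Het Mph, 8.08, 5.59 and 8.00 in Hom Mph and 5.78, 6.53 and 7.50 in Hom int pop. It was above background on 2 of the Het Mph arrays.

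Rps24 probe b had 6.48, 6.93 and 7.11 in Het Mph, 6.91, 6.94 and 6.93 in Hom Mph and 6.70, 5.83 and 6.28 in Hom int pop. All Hom int pop arrays were below the Hom Mph arrays, by -0.66 ± 0.308 (SE, adjusted p = 0.660). Rpl31 gave 0.20 ± 0.249 for probe a, 0.66 ± 0.647 for probe b and -0.05 ± 0.352 for probe c. Hom Mph minus Het Mph was -0.46 ± 0.352 for Rpl31 probe c and -0.60 ± 0.424 for Rpl27a probe d. In the remaining 7 of the 12 genes apart from Rpl29, the probes differed by 0.15 or less, among them Rps3 (0.26 and 0.27) and Rpl30 (-0.27 and -0.25).

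Paralogues and variants of the core proteins did not pass the test either, and Rpl10l was not analysed here. Rpl3l, the paralogue of Rpl3 known from striated muscle, had 8.80, 6.58 and 7.95 in Het Mph, 8.75, 8.61 and 7.05 in Hom Mph and 7.32, 5.89 and 7.11 in Hom int pop. The groups overlapped. Its differences of -1.36 ± 0.655 from Hom Mph (SE, adjusted p = 0.667) and -1.18 ± 0.568 from the mean of both Mph groups (adjusted p = 0.440) lay opposite in sign to the 0.25 and 0.24 of Rpl3. Rps27l, a p53-responsive paralogue of Rps27, had 10.04, 10.29 and 10.29 in Het Mph, 10.37, 10.28 and 10.39 in Hom Mph and 9.91, 10.25 and 10.06 in Hom int pop, with all Hom int pop arrays below the Hom Mph arrays (log2 difference -0.27 ± 0.248, adjusted p = 0.863). Rps4x, the X-linked S4 gene, had group means of 11.25 ± 0.07, 11.25 ± 0.13 and 11.34 ± 0.08 (SD, n = 3 each, Het Mph, Hom Mph and Hom int pop).

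Genes just outside the rule were measured too. The 35 probes annotated to ribosomal protein pseudogenes included 25 that passed the filter, of which 0 were called in limma, with a median log2 difference of 0.14 and a range from -0.33 to 0.50 between Hom int pop and Het Mph. Such probes can share sequence with the parent message. Rps3a1, a functional gene whose symbol the rule leaves out, had means of 10.14 ± 0.23 in Het Mph, 10.13 ± 0.15 in Hom Mph and 10.43 ± 0.14 in Hom int pop (SD, n = 3 each), a difference of 0.29 from Het Mph (adjusted p = 0.637). Over the paralogues Rpl22l1, Rpl36al and Rpl7l1, 4 probes in all, 0 were called in limma, and the largest difference was -1.20 for an Rpl7l1 probe against Hom Mph (adjusted p = 0.709).

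Lists of genes that work with the ribosome were set beside these values. Of the other TOP and translation genes, 33 of 44 were measured, by 66 probes, with a median of 0.16 between Hom int pop and Het Mph (all probes -0.11) and 0 called, and 6 probes (9.09%) with an unadjusted p under 0.05, as had 13.4% of all probes. Against the mean of both Mph groups 1 was higher, Pabpc4, a poly(A)-binding protein. It had 4.38, 4.47 and 4.39 in Het Mph, 4.23, 4.48 and 4.22 in Hom Mph and 5.81, 5.66 and 6.97 in Hom int pop, at least 2.37-fold above Het Mph and 2.43-fold above Hom Mph (adjusted p = 0.0359 against the mean of both). No Mph array was well above background for it and all 3 Hom int pop arrays were, so it entered the test through the group where it was high. Without normalization between arrays the call was lost, and Rack1 was not analysed here. Naca, a chaperone at the exit tunnel, gave 1.27 ± 0.384 from Het Mph (adjusted p = 0.194).

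Ribosome biogenesis genes, 56 of 70 measured by 80 probes, had a median of 0.18 between Hom int pop and Het Mph, 0 called and 4 (5.00%) with an unadjusted p under 0.05. Without normalization between arrays that median was -0.04 where the median of all probes was -0.37, so it lay above the median of all probes on both scales. Levels were not matched here, and the unnormalized median of all bright probes was 0.02. The smallest p belonged to Nop14, a small-subunit assembly factor, at 1.82 ± 0.493 (SE, adjusted p = 0.142). Gnl2, a nucleolar GTPase, gave 1.94 ± 0.634 (adjusted p = 0.233) and 2.00 ± 0.634 for Hom Mph minus Het Mph (adjusted p = 0.617). Mitochondrial ribosomal proteins, which serve another ribosome, were measured for 69 of 76 genes by 99 probes, with a median of 0.07 (-0.18 without normalization), 0 called and 6 (6.06%) with an unadjusted p under 0.05. Their extremes among named genes were Mrpl52 at 1.40 ± 0.564 and Mrpl18 at -1.43 ± 0.595 (adjusted p = 0.324 and 0.337).

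A list of mTOR and MYC pathway genes also held Mdm2 and Larp4. Of its genes, 18 of 24 were measured, by 33 probes, with a median of 0.20 (-0.01 without normalization) and 0 called between Hom int pop and Het Mph. Of these probes 9 (27.3%) had an unadjusted p under 0.05 in limma, beside the 13.4% of all probes. Larp4 and 2 Mdm2 probes were among the 9. Myc had 4.21, 4.43 and 4.39 in Het Mph, 4.33, 4.25 and 5.30 in Hom Mph and 6.20, 5.55 and 4.85 in Hom int pop. It was above background on 0, 1 and 2 arrays of the groups. Its mean was higher in Hom int pop than in Het Mph (adjusted p = 0.252 in limma), but neither group was above background throughout, so no size is given. Mdm2, the p53 ligase bound by several free ribosomal proteins, gave 1.54 ± 0.347 (adjusted p = 0.0833) and 0.89 ± 0.279 (adjusted p = 0.209) in its 2 probes. Eif4ebp2, a translation repressor that mTORC1 inactivates, gave 1.63 ± 0.417 (adjusted p = 0.121), and Larp4, an RNA-binding protein, gave 1.42 ± 0.315 (adjusted p = 0.0787). For these 2 genes the Hom Mph means of 8.26 and 6.47 lay near the Hom int pop means of 8.59 and 6.39.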

How the data were processed

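Per the labels' protocols, RNA of sorted cells was column-purified, amplified with a pico-scale whole-transcriptome kit and biotin-labelled. The authors deposited probe intensity values, linear and without normalization per the file headers. They also deposited a detection p-value for each probe on each array and a normalized intensity table, the methods of both not given in the sources used here. Background was corrected with limma 3.58.1 (R 4.3.3) by normexp with an offset of 16, taking the negative controls' mean and spread from the detection p-values. Quantile normalization and log2 followed. Probes detected at p below 0.05 on 3 or more arrays were fitted with 1 mean per group (lmFit, eBayes) and called below 0.05 after Benjamini-Hochberg adjustment over all 21946 probes. The fit was tested on simulated data. Exact two-sided permutation tests ran over arrays.

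The members and lists were chosen with earlier results of these data known. Named are the called probes, the 5 largest differences each way in each pairwise comparison, the stalk proteins and Rpsa, paralogues, genes with probes of opposite sign, probes outside all Mph arrays and, per list, called genes, the 4 of smallest p and Myc. Rps6, Rps3, Rpl30 and Rps3a1 were named after their values were seen. Alternatives changed the background, normalization, filter, probe choice, samples fitted and replicates.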

Additional observations from a re-analysis of the deposited data

How the results depend on the processing

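The count of ribosomal protein probes called lower was 0 under every alternative run, and so was the count called higher between Hom int pop and Hom Mph and between Hom Mph and Het Mph. The 1 probe higher against Het Mph, Rplp0 probe a, stayed called when each replicate was left out in turn (log2 difference from 2.89 to 3.33), with an adjusted p from 0.00115 to 0.0251 over 19 alternatives. The count was 0 with detection on all 9 arrays, a filter that leaves out this probe, for the comparisons with Het Mph and with the mean of both Mph groups. The second was also 0 with both Mph groups fitted as 1 group, and ran from 0 to 1 when replicates were left out in turn, with 0 without Hom int pop replicate 1.

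With median scaling the ribosomal protein medians were 0.62 against Het Mph, 0.26 against Hom Mph, 0.45 against both and 0.36 between the Mph groups, and without normalization the last was 0.16. The cause was not tested. Under the other alternatives they kept within the spread between replicates. Under median scaling, which lifted the ribosomal protein median as above, the values against Het Mph were above 0 for Rpl23 probe a (0.38), Rpl31 probe c (0.16) and Rps27l (0.33), and below 0 for Rpl23 probe c without normalization (-0.06) and with scaling to bright probes that are no members (-0.07), which was chosen after seeing the data. Leaving out replicates moved Rpl27a probe d from -0.29 to 0.09, Rpl31 probe c from -0.23 to 0.11, Rpl27a probe a from -0.04 to 0.05 and Rps24 probe c from -0.32 to 1.22 against Het Mph, and Rpl23 probe d from -0.49 to 0.07 between the Mph groups.

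Over all probes the counts depended more on the settings. Against Het Mph the 174 higher and 45 lower ranged from 61 to 350 and from 22 to 157, with 350 and 157 without background correction, 328 and 141 in the authors' normalized table, 276 and 30 with median scaling, 95 and 42 with scaling to bright probes that are no members, and 61 and 24 without Hom int pop replicate 1. Against Hom Mph the 25 and 12 ranged from 0 to 58 and from 0 to 35, with 18 and 16 without normalization between arrays. Hom arrays of both populations share the numbers 1 to 3 in their titles, which do not say that a number is 1 mouse. Deviations of same-numbered arrays correlated by 0.183, -0.0625 and 0.147 over all probes and by 0.452, 0.161 and 0.259 over the ribosomal protein probes, and 1 of 3 arrays correlated best with its own number over all probes, so whether the numbers pair the arrays is not settled. With the replicate number as a block in these 6 arrays 0 and 0 were called, the ribosomal protein median was 0.07 and Rplp0 probe a was 1.67 (adjusted p = 0.529). Against both Mph groups the 118 and 37 ranged from 22 to 280 and from 16 to 121, with 71 and 48 without normalization, 161 and 26 with median scaling and 67 and 37 with scaling to bright probes that are no members. Between the Mph groups the 4 and 1 ranged from 1 to 16 and from 0 to 2. The causes were not tested. Fitting only the groups compared gives no other fit for the mean of both Mph groups. The 95% intervals against Het Mph had a median half-width of 0.89 for dim and 0.54 for bright ribosomal protein probes.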

Other observations

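The share of each array's unnormalized signal held by the 74 passing ribosomal protein probes was 1.20%, 1.08% and 0.97% in Het Mph, 1.51%, 1.10% and 1.32% in Hom Mph and 1.61%, 1.52% and 1.34% in Hom int pop. All Hom int pop arrays lay above all Het Mph arrays and overlapped the Hom Mph arrays. The median unnormalized signal of all probes, which is mostly background, was 198.4, 217.0 and 290.3 in Het Mph, 145.0, 241.7 and 209.9 in Hom Mph and 146.2, 159.6 and 184.2 in Hom int pop. The array with the highest background had the lowest share, and the part of background in the share was not tested.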
